A study of Mus musculus with 6 samples.

Results

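The 44 genes described here are the collagen genes of the mouse, taken as the protein-coding genes whose symbol has the form Col, a number, the letter a and a number, out of 22046 protein-coding genes and 54532 genes listed in each count file. All 44 were in each of the 6 files, and they lie on 15 chromosomes. By class, 11 are fibrillar, 6 belong to the basement membrane type IV, 6 to the beaded filament type VI, 9 to the fibril-associated collagens (FACIT), 3 to the network types VIII and X, 1 to the anchoring fibril type VII, 4 to the transmembrane collagens and 2 to the multiplexins, and 2 were left unclassified. RNA came from YAMC, a mouse line, wild-type apart from its immortalising gene, that the labels call colonic epithelium of a young adult animal. Its immortalising gene is the heat-sensitive large T antigen tsA58 of SV40, driven by an H-2Kb promoter that interferon-gamma switches on, and all libraries come from cells kept at 33 °C with interferon-gamma. The 3 libraries of one group had received 2'-fucosyllactose (2'-FL), a sugar found in the milk of humans, for 6 h at 20 µg/ml, and the 3 control libraries no treatment. The labels give a time for the 2'-FL libraries and none for the controls, so an effect of the sugar and one of a different time in culture cannot be told apart. Nothing says that replicates came from separate cultures, so a p-value here sets a difference against the spread among these libraries alone, and that spread may be technical.

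Collagens are secreted proteins of 3 chains wound into a triple helix, whose chains can come from the same or from different genes. Fibrillar types I, III and V assemble into the fibrils that give connective tissue its tensile strength, type IV forms the sheet-like network of basement membranes, type VI forms beaded filaments near basement membranes, and FACIT collagens coat fibril surfaces. In the colon, fibrillar collagens are known mainly as products of fibroblasts and muscle cells below the epithelium, while the crypt epithelium rests on a type IV basement membrane.

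Total counts ranged from 19978583 to 25251187 per library, so that 1 CPM, the count scaled to a common library total, stood for 19.98 to 25.25 counts. Their means were 22850586 ± 2667724 with 2'-FL against 20387866 ± 591250 in controls (n = 3 each, SD; p = 0.4 by exact permutation, two-sided, and the design allows no p below 0.1). On principal components of all tested genes, 2'-FL replicate 2 stood apart on the first (28.0% of variance) and control replicate 1 on the second (21.7%). Against the label, 10 of 10 markers of colon epithelium averaged under 1 CPM over the 6 libraries, and Cdx1, Cdx2, Car1 and Slc26a3 were at 0 in every library. All 4 simple epithelial keratins listed were present, at a sum of 907.5 to 1235 CPM. Fibroblast markers other than collagens summed to 2398 to 2625 CPM, nearly all of it from Vim and Dcn, with means of 1728 and 692 CPM. Of the other 8, Fap and S100a4 averaged under 1 CPM, Lum was at 0, and Twist1, the highest, averaged 42.2 CPM. The mesothelial markers summed to 4135 to 4537 CPM with a mean under 1 CPM in 0 of 6. The levels below are thus those of cells without colonocyte markers.

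Collagen transcripts took 1.45 ± 0.10% of all counts (SD, n = 6). Col1a1, the chain of type I collagen, was the highest collagen per kilobase of gene length, at 541 ± 56.8 CPM per kb (SD, n = 6), and ranked 24 among 16597 protein-coding genes with a count. Col5a2, a chain of type V, stood at 342.5 ± 28.6 CPM per kb and ranked 53, and Col3a1, the chain of type III, stood at 274 ± 22.3 CPM per kb and ranked 85. These 3 fibrillar genes held 65.8% of all collagen counts. Among the first 1000 protein-coding genes 8 were collagens, and 3 of these were within the first 100. By class, fibrillar genes made up 67.5 ± 1.21% of collagen CPM per kb, type IV genes 19.8 ± 0.37% and type VI genes 7.61 ± 1.06% (SD, n = 6). FACIT genes followed at 3.32 ± 0.26%, the network genes at 1.34 ± 0.13%, the multiplexins at 0.495 ± 0.047% and Col7a1 at 0.0054 ± 0.0028%. This order of the classes was also found with the length of the reference transcript in place of the gene length listed in the files. On that scale fibrillar genes made up 70.8%, type IV genes 16.6% and type VI genes 7.38%. The first 3 genes were Col1a1, Col5a2 and Col3a1 at 598, 496 and 484 CPM per kb. Their ranks among protein-coding genes were then 43, 70 and 71, and Col5a1, at rank 607 by gene length, was at 1031.

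**Figure D1:**
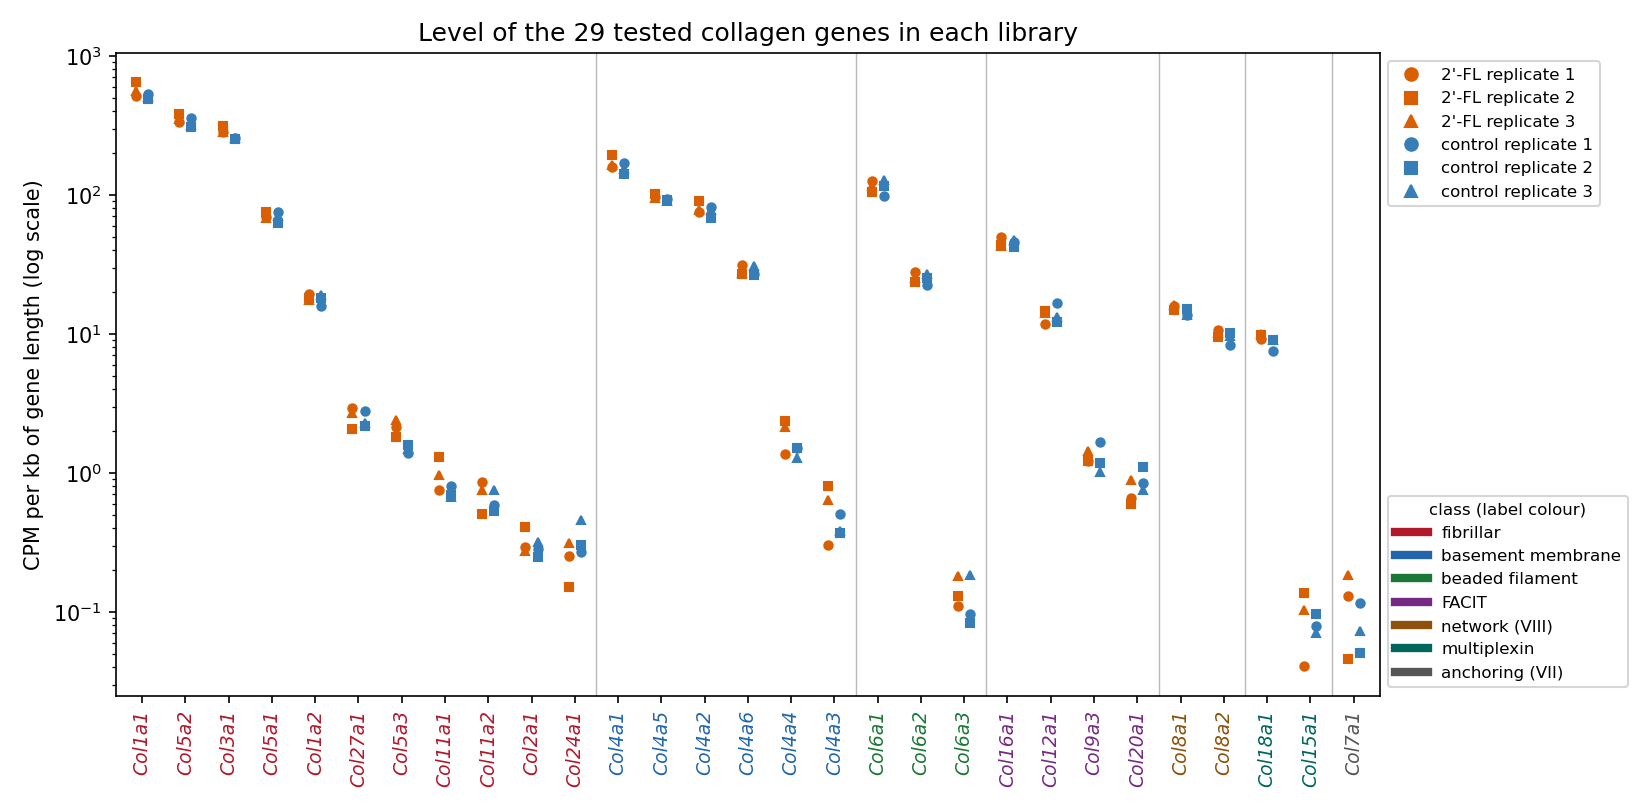
Level of each tested collagen in each library, in CPM per kb of gene length on a log axis, ordered by level within class, with 2'-FL libraries in orange, controls in blue and one symbol per replicate number. Levels run over almost the whole axis within the fibrillar class, from 541 CPM per kb for Col1a1 to 0.292 CPM per kb for Col24a1 on average, while the libraries of a gene lie close together at high levels and further apart at low ones.

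Summed over the 44 genes, collagens stood at 14390, 16276 and 14791 CPM in 2'-FL replicates 1 to 3 and at 14434, 13211 and 13845 CPM in control replicates 1 to 3. The groups overlapped, since 2'-FL replicate 1 lay just below control replicate 1. The means were 15152 ± 994 CPM with 2'-FL against 13830 ± 611 CPM in controls (n = 3 each, SD). In such bulk samples, more cells of a collagen-rich kind and more collagen RNA per cell cannot be told apart. Of the 44 genes, 29 passed the filter on low counts and were tested. By edgeR's quasi-likelihood test with Benjamini-Hochberg adjustment, 0 of these 29 passed over all genes, as did 0.0% of the 14129 genes tested. At an unadjusted p under 0.05, edgeR had 6 of the 29, all higher with 2'-FL, namely Col5a3, Col3a1, Col4a4, Col11a1, Col18a1 and Col8a1. Over all genes 7.9% had such a p, 3.36% higher and 4.54% lower. DESeq2 called 0 of 42 collagens with a count and 0.122% of all genes. Both totals include genes without a DESeq2 adjusted p, such as Col6a3, which could not be called. With limma-voom 0 of 29 passed, but its share of all genes called is not given here, so that count has no background. DESeq2 and limma-voom had 7 and 6 collagens at an unadjusted p under 0.05, all higher, against 1.75% and 3.34% of all genes higher at such a p. Estimated log2 fold changes, 2'-FL minus control, were above 0 for 26 of the 29 and below 0 for 3, with a median of 0.14, against 48.4% above 0 and a median of -0.01 over all genes tested. These counts describe the 29 tested members and leave out the 15 with few counts. In 4 members, Col3a1, Col4a5, Col18a1 and Col5a3, each 2'-FL library lay above each control, and in 0 below. Over all genes those shares were 6.12% and 6.85%.

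The number at an unadjusted p under 0.05 was 3 in edgeR when 2'-FL replicate 2, 2'-FL replicate 3 or control replicate 3 was left out, where 1.98%, 2.53% and 2.12% of all genes were higher at such a p. It was 9 without 2'-FL replicate 1, against 4.48% of all genes, and there Col4a4 passed over all genes (log2 fold change 0.67, edgeR adjusted p = 0.0488), as did 0.145% of all genes tested then. Without 2'-FL replicate 2 and control replicate 1 together it was 5, made up of Col3a1, Col5a2, Col5a3, Col7a1 and Col27a1, against 2.21% of all genes. With library totals only it was 4 (2.99% of all genes), and with a replicate block 5 (2.3%), where 0 collagens and 0.00708% of all genes passed. Without a filter on low counts it was 10 (2.84%), and 2 collagens and 0.603% of all genes passed. Col3a1 and Col5a3 had an unadjusted p under 0.05 in each of 17 alternative analyses. Of 8 smooth muscle markers, 6 were tested, all 6 with estimates above 0, and 0 passed after edgeR adjustment, where 0.0% of all genes passed. With all libraries, edgeR had 4 of the 6 at an unadjusted p under 0.05, all higher, against 3.36% of all genes higher. These were Acta2, Cnn1, Myl9 and Tagln, the last 3 with log2 fold changes of 0.74, 0.76 and 0.62. The 8 markers summed to 356 to 599.6 CPM with 2'-FL against 269.6 to 330.5 CPM in controls. Most of that sum came from Acta2 and Smtn, with means of 252 and 122 CPM and log2 fold changes of 1.01 and 0.07. Myh11 and Actg2 were under 1 CPM on average. Keratins summed to 1009.9 to 1235 CPM with 2'-FL against 907.5 to 1025 CPM in controls, and these sums overlapped. Of the 4 keratins, Krt8 and Krt19 were higher at an unadjusted p under 0.05 by edgeR, and 0 were lower. Colon epithelium markers summed to 0.594 to 1.501 CPM with 2'-FL against 1.59 to 1.70 CPM in controls. These are sums of few counts, and 1 of the 10 markers was tested. Mesothelial markers summed to 4337 to 4471 CPM with 2'-FL against 4135 to 4537 CPM in controls. The fibroblast markers summed to 2547 to 2625 CPM with 2'-FL against 2398 to 2554 CPM in controls. The mesothelial and the fibroblast sums also overlapped between groups. Of 6 mesothelial markers tested, 1 was lower and 0 higher at an unadjusted p under 0.05 by edgeR. This was Muc16, at a log2 fold change of -0.595 ± 0.15 (SE; unadjusted p = 0.001005, edgeR adjusted p = 0.279). Of 8 fibroblast markers tested, 1 was higher and 0 lower. This was Thy1, at 0.59 ± 0.16 (SE; unadjusted p = 0.00284, edgeR adjusted p = 0.372). Neither gene overlapped between groups. The part of these cell markers in the collagen values was not tested.

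**Figure D2:**
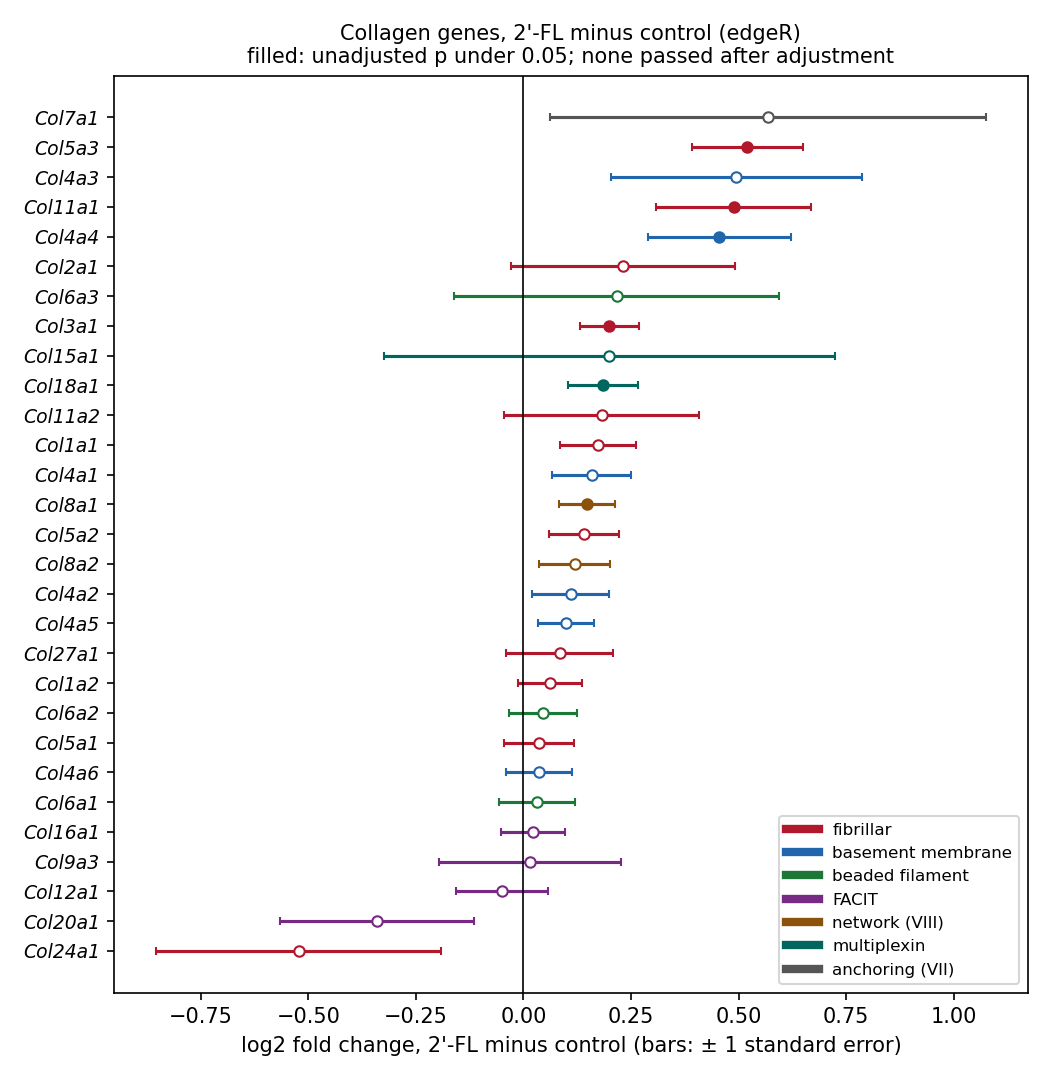
Estimated log2 fold change of each tested collagen, 2'-FL minus control, with bars of 1 standard error and colours for the class. Estimates lie above 0 for 26 genes and below 0 for Col12a1, Col20a1 and Col24a1, and the filled points mark the 6 genes at an unadjusted p under 0.05, of which 0 passed after adjustment.

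The bases before the start sites are shown for the genes with the smallest p that have 1 window in the RefSeq promoter table (build GRCm38.p6), to show what precedes the genes nearest to the threshold. Col18a1 has 2 windows and is left out. For Col4a4 the run is the whole gap of 71 bases to Col4a3, which starts on the other strand. Windows run 5′ to 3′ in the direction of the gene and end at the base before its start. Capitals mark matches to the TATA box letters TATAAA, the CCAAT box letters CCAAT and the GC box letters GGGCGG, which were searched on both strands, so that a match on the other strand appears as its reverse complement. The positions are chr9:20815068-20815317 on the minus strand for Col5a3, chr1:45311288-45311537 on the plus strand for Col3a1, chr3:114030290-114030539 on the plus strand for Col11a1, chr16:57754738-57754987 on the minus strand for Col8a1 and chr1:82586850-82586920 on the minus strand for Col4a4.
Col5a3: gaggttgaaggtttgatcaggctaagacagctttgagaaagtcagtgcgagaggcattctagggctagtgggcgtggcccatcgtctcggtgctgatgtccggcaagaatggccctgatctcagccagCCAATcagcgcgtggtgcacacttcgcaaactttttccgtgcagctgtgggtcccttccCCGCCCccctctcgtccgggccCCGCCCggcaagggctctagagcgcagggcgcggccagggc
Col3a1: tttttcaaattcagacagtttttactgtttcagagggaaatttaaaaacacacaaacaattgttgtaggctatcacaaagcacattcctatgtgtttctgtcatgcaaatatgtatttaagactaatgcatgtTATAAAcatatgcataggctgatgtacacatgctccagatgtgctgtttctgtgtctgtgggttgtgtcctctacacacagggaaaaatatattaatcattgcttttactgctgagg
Col11a1: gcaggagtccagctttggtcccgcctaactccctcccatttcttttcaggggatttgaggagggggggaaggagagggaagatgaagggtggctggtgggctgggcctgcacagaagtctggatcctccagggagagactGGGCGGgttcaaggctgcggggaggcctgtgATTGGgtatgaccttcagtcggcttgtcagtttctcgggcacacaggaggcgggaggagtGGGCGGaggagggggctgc
Col8a1: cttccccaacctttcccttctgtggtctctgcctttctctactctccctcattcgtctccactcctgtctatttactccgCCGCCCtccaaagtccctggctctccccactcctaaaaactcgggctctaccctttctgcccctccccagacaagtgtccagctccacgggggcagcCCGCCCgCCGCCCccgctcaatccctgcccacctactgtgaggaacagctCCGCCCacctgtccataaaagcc
Col4a4 to Col4a3: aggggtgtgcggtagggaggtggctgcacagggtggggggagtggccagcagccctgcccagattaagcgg
The Col3a1 window holds 1 TATAAA and has a GC content of 35.2%, while those of Col5a3, Col11a1 and Col8a1 hold none and have 62.8%, 62.4% and 60.8%. Col5a3 and Col11a1 each hold 1 CCAAT and 2 GGGCGG, Col8a1 holds 4 GGGCGG, and the gap between Col4a4 and Col4a3 holds none of the motifs. Of the 44 collagens, 35 matched the table by symbol, with 38 windows. Counted over the full 250 bases before each start in the table, annotated exons of other transcripts or genes included, both for collagens and for all genes, TATAAA was in 5 of the 38 (13.2%, against 12.4% of 32851 windows of all genes) and CCAAT in 13 (34.2% against 33.9%). GGGCGG was in 22 of the 38 (57.9% against 32.7%). These matches describe letters in the windows and say nothing of factors bound there.

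Fibrillar collagens were all tested, 11 of 11, with 10 estimates above 0, a median log2 fold change of 0.17 and 3 at an unadjusted p under 0.05. Their summed level was 10243, 11906 and 10695 CPM in 2'-FL replicates 1 to 3 and 10375, 9439 and 9784 CPM in control replicates 1 to 3. Control replicate 1 lay inside the 2'-FL range, so the sums overlapped between groups. Col3a1 (chromosome 1, 45311538 to 45349706, plus strand, GRCm38), whose product forms type III fibrils together with type I, stood at 2769, 3051 and 2782 CPM with 2'-FL and at 2533, 2482.5 and 2526 CPM in controls. The groups did not overlap, and the controls lay within a narrow range below. The log2 fold change was 0.20 ± 0.07 (SE), with an unadjusted p of 0.0112 and an edgeR adjusted p of 0.502, so it did not pass. Col1a1 (chromosome 11, 94936224 to 94953042, plus strand) stood at 3349, 4239 and 3653 CPM with 2'-FL and at 3510.3, 3208 and 3325 CPM in controls. The groups overlapped, with 2'-FL replicate 2 well above the other libraries and 2'-FL replicate 1 below control replicate 1. Its log2 fold change was 0.17 ± 0.09 (SE; edgeR adjusted p = 0.684), or 0.062 without 2'-FL replicate 2. Col1a2, the second chain of type I, stood at 239.9, 225 and 218 CPM with 2'-FL and at 196.5, 225 and 238 CPM in controls. These values interleaved, and the log2 fold change was 0.06 ± 0.07 (SE; edgeR adjusted p = 0.875).

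Type V chains, which join type I in mixed fibrils and limit their width, differed in level by gene. Col5a2 (chromosome 1, 45374321 to 45503282, minus strand) stood at 3229, 3687 and 3388 CPM with 2'-FL and at 3427, 2935 and 3041 CPM in controls. Control replicate 1 lay above 2'-FL replicates 1 and 3, and the log2 fold change was 0.14 ± 0.08 (SE; edgeR adjusted p = 0.717). Col5a1 stood at 584, 639.7 and 581 CPM with 2'-FL and at 644, 533 and 594 CPM in controls. Its highest and its lowest library were both controls, and the log2 fold change was 0.04 ± 0.08 (SE; edgeR adjusted p = 0.942). Col5a3 (chromosome 9, 20770050 to 20815067, minus strand), a chain found in some type V molecules, had the smallest p of all collagens although it was low. It stood at 14.7, 12.4 and 16.4 CPM with 2'-FL and at 9.504, 10.7 and 10.2 CPM in controls. Each 2'-FL library lay above each control, and the means were 14.5 ± 2.04 and 10.1 ± 0.61 CPM (n = 3 each, SD). The log2 fold change was 0.52 ± 0.13 (SE), with an unadjusted p of 0.00108 and an edgeR adjusted p of 0.293, so it did not pass. Col3a1 and Col5a2 are neighbours, lying tail to tail with 24614 bases between them.

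The other fibrillar genes were low in these cells. Col11a1, a chain of the type XI collagen of cartilage fibrils, stood at 9.562, 16.6 and 12.3 CPM with 2'-FL and at 10.3, 8.876 and 8.506 CPM in controls. The groups overlapped through 2'-FL replicate 1, which lay below control replicate 1, and the highest value was in 2'-FL replicate 2. Its log2 fold change was 0.49 ± 0.18 (SE), with an unadjusted p of 0.0166 and an edgeR adjusted p of 0.524, and it was 0.24 without 2'-FL replicate 2. Col24a1 had the lowest estimate of the 29 tested collagens, at 1.93, 1.15 and 2.403 CPM with 2'-FL against 2.05, 2.33 and 3.48 CPM in controls. Its groups overlapped, and the log2 fold change was -0.52 ± 0.33 (SE; edgeR adjusted p = 0.735). Col27a1, Col11a2 and Col2a1, the last the main collagen of cartilage, averaged 2.48, 0.667 and 0.304 CPM per kb over all libraries, with log2 fold changes of 0.08, 0.18 and 0.23 and overlapping groups. Of 8 markers of cartilage and bone cells, 7 averaged under 1 CPM over the 6 libraries, all but the osteoblast factor Runx2 at 48.4 CPM, and Acan and Ibsp were at 0 in every library.

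Basement membrane genes of type IV come as neighbouring pairs that start close together and run in opposite directions. All 6 were tested and had estimates above 0, with a median log2 fold change of 0.13 and 1 at an unadjusted p under 0.05. Their summed level was 2594, 2962 and 2615 CPM with 2'-FL against 2668, 2342 and 2527 CPM in controls, and the groups overlapped. Col4a1 (chromosome 8, 11198423 to 11312826, minus strand), a chain of the common type IV molecule, stood at 1181, 1436 and 1214 CPM with 2'-FL and at 1263, 1048 and 1146 CPM in controls. Its partner Col4a2 (chromosome 8, 11312805 to 11449287, plus strand) stood at 501, 596 and 516 CPM with 2'-FL and at 544.5, 449 and 512 CPM in controls. Both chains had the same highest library, 2'-FL replicate 2, and the same lowest, control replicate 2, and the groups overlapped in both. The log2 fold changes were 0.16 ± 0.09 for Col4a1 and 0.11 ± 0.09 for Col4a2 (SE; edgeR adjusted p = 0.717 and 0.806), and without 2'-FL replicate 2 they were 0.052 and 0.016. The annotated genes share 22 bases at their starts, and the sources used here do not say whether the authors counted by strand.

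Col4a5 (X chromosome, 141475385 to 141689234, plus strand), a chain of the minor type IV molecules, was the second highest of its class at 94.6 ± 3.99 CPM per kb (SD, n = 6). It stood at 647, 682 and 637 CPM with 2'-FL and at 625, 615 and 607 CPM in controls. The groups did not overlap, but the gap between the nearest libraries was small, and the log2 fold change was 0.10 ± 0.06 (SE; edgeR adjusted p = 0.742). Its neighbour Col4a6, which starts 1308 bases away, averaged 28.2 CPM per kb. It stood at 248, 215 and 219 CPM with 2'-FL and at 214, 210.4 and 244 CPM in controls, which overlapped, and its log2 fold change was 0.04 ± 0.08 (SE). Col4a4 (chromosome 1, 82448423 to 82586849, minus strand), a chain best known from the kidney glomerulus, stood at 14.5, 25.2 and 22.8 CPM with 2'-FL and at 16.1, 16.1 and 13.7 CPM in controls. The groups overlapped, because 2'-FL replicate 1 lay within the control range while the other 2 lay above it. Its log2 fold change was 0.46 ± 0.17 (SE), with an unadjusted p of 0.0157 and an edgeR adjusted p of 0.514. Col4a3, its partner across the 71 bases shown above, stood at 3.001, 8.08 and 6.41 CPM with 2'-FL and at 5.05, 3.702 and 3.78 CPM in controls. It was lowest in 2'-FL replicate 1, the lowest 2'-FL library of Col4a4 too, and its log2 fold change was 0.49 ± 0.29 (SE; edgeR adjusted p = 0.720).

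Among the type VI genes, Col6a1 and Col6a2 were abundant and Col6a3, which supplies the large chain of the usual type VI molecule, was close to the filter. Col6a1 (chromosome 10, 76708792 to 76726168, minus strand) stood at 553.5, 459 and 509 CPM with 2'-FL and at 429.5, 507 and 561 CPM in controls. The lowest and the highest library were both controls, and the log2 fold change was 0.03 ± 0.09 (SE; edgeR adjusted p = 0.958). Col6a2 stood at 233, 196 and 209 CPM with 2'-FL and at 186, 211 and 226 CPM in controls, with overlapping groups and an estimated log2 fold change of 0.04 ± 0.08 (SE, with 0.926 as the edgeR adjusted p). In Col6a1 and Col6a2 alike, the order of the libraries within each group was the same, with 2'-FL replicate 2 the lowest of its group, where Col1a1 and Col4a1 had it highest. Col6a3 stood at 1.33, 1.54 and 2.15 CPM with 2'-FL and at 1.15, 0.997 and 2.19 CPM in controls. It had 201 counts over the 6 libraries, and its log2 fold change of 0.22 ± 0.38 (SE, with 0.925 as the edgeR adjusted p) was smaller than its error.

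Of the 9 FACIT genes, 4 were tested, with 2 estimates on each side of 0 and 0 at an unadjusted p under 0.05. Col16a1, which associates with fibrils and microfibrils, was the highest at 45.3 ± 2.94 CPM per kb (SD, n = 6). It stood at 336.5, 293 and 290.9 CPM with 2'-FL and at 311, 284 and 318 CPM in controls, with overlapping groups and an estimated log2 fold change of 0.02 ± 0.07 (SE, with 0.967 as the edgeR adjusted p). Col12a1, which binds to type I fibrils, stood at 180.2, 221 and 213 CPM with 2'-FL and at 253, 187 and 201 CPM in controls. Control replicate 1 was the highest library, and the log2 fold change was -0.05 ± 0.11 (SE; edgeR adjusted p = 0.941). Col20a1 stood at 3.39, 3.05 and 4.56 CPM with 2'-FL and at 4.35, 5.696 and 3.88 CPM in controls, again with overlap and an estimated log2 fold change of -0.34 ± 0.23 (SE, with 0.749 as the edgeR adjusted p). Its span overlaps 9230112E08Rik on the same strand, which had 1601 counts over the 6 libraries against 532 for Col20a1, so its level is uncertain. Col9a3, a chain of type IX from cartilage, had 641 counts and overlaps Tcfl5, on the other strand, which had 1881. Its log2 fold change was 0.02 ± 0.21 (SE).

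The network collagen type VIII is known from blood vessel walls and the Descemet membrane of the cornea, and both of its genes were tested. Col8a1 (chromosome 16, 57624258 to 57754737, minus strand) stood at 124, 116 and 127 CPM with 2'-FL and at 106, 119 and 107.5 CPM in controls. Control replicate 2 lay above 2'-FL replicate 2, so the groups overlapped. Its log2 fold change was 0.15 ± 0.07 (SE), with an unadjusted p of 0.0385 and an edgeR adjusted p of 0.598. Col8a2 stood at 48.1, 42.3 and 45.5 CPM with 2'-FL and at 37.6, 45.3 and 43.03 CPM in controls, which overlapped, and its log2 fold change was 0.12 ± 0.08 (SE; edgeR adjusted p = 0.770). Col18a1 (chromosome 10, 77052178 to 77166548, minus strand), the basement membrane multiplexin whose end fragment is endostatin, stood at 64.06, 68.4 and 70.1 CPM with 2'-FL and at 52.5, 63.04 and 63.9 CPM in controls. The groups did not overlap, though 2'-FL replicate 1 lay only just above control replicate 3, and control replicate 1 was the lowest. The log2 fold change was 0.19 ± 0.08 (SE), with an unadjusted p of 0.0368 and an edgeR adjusted p of 0.594. Col18a1 overlaps Slc19a1, which had 1517 counts against 8284. Col15a1, the other multiplexin, had 73 counts over the 6 libraries, the fewest of any tested collagen. Col7a1, which forms the fibrils that anchor epithelial basement membranes, stood at 1.33, 0.475 and 1.902 CPM with 2'-FL and at 1.2, 0.522 and 0.746 CPM in controls. The values of the groups interleaved, and the log2 fold change of 0.57 ± 0.51 (SE, with 0.823 as the edgeR adjusted p) was about as large as its error.

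The 15 genes that did not pass the filter had 232 counts together over all 6 libraries, and none had more than 43. They include all 4 transmembrane collagens, with 17 counts for Col17a1, the collagen of hemidesmosomes in stratified epithelia, 37 for Col23a1, 2 for Col25a1 and 1 for Col13a1. Type VI genes Col6a4, Col6a5 and Col6a6 had 9, 7 and 1 counts. Col10a1, a marker of hypertrophic cartilage, had 36 counts and lies within Nt5dc1 on the other strand, which had 2089. FACIT genes Col22a1, Col14a1, Col9a2 and Col9a1 had 43, 35, 20 and 4 counts, and Col28a1 had 20. Col19a1 and Col26a1 had 0 counts in every library, which allows up to 0.0231 CPM over the 6 libraries together (3 counts, for counting error only).

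Chains that share a molecule, and Col3a1 with Col1a1, which share fibrils, were then compared as ratios of CPM per kb within each library, so that depth cancels. Type I collagen is usually built from 2 chains of Col1a1 and 1 of Col1a2, and the ratio of the transcripts was 30.2 ± 4.08 (SD, n = 6), from 26.4 to 35.6. With the length of the reference transcript it was 14.4 ± 1.94, because the files list 12426 bases for Col1a2 where the reference transcript has 5348. The ratio was thus above 10 on both scales and in every library. Col4a1 over Col4a2, also combined as 2 to 1 in the common type IV molecule, was 2.07 ± 0.05 and 2.28 ± 0.06 on the respective scales. Its values were 2.09, 2.14 and 2.09 with 2'-FL against 2.06, 2.07 and 1.98 in controls on the first scale, with each 2'-FL library above each control by a small margin. Col6a1 over Col6a2 was 4.55 ± 0.12, and 2.303 ± 0.061 with the reference transcripts, with overlapping groups. Col6a1 over Col6a3 was 951 ± 285 and 764 ± 229, where Col6a3 had 201 counts over the 6 libraries.

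Col5a1 over Col5a2 was 0.205 ± 0.010, or 0.143 ± 0.007 with the reference transcripts, so the type V transcripts stood in the opposite order to the usual molecule of 2 Col5a1 chains and 1 Col5a2 chain. The ratio was 0.204, 0.196 and 0.194 with 2'-FL against 0.212, 0.205 and 0.221 in controls, and each 2'-FL library lay below each control, although the nearest values of the groups, 0.204 and 0.205, almost met. Col3a1 over Col1a1 was 0.509 ± 0.026, or 0.811 ± 0.042 with the reference transcripts, with overlapping groups. Col8a1 over Col8a2 was 1.53 ± 0.07, or 2.27 ± 0.11, and also overlapped. Col4a5 over Col4a6, a ratio added after the values were seen, was 3.37 ± 0.30, or 2.89 ± 0.25 (SD, n = 6 throughout). No ratio was tested between groups.

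**Figure D3:**
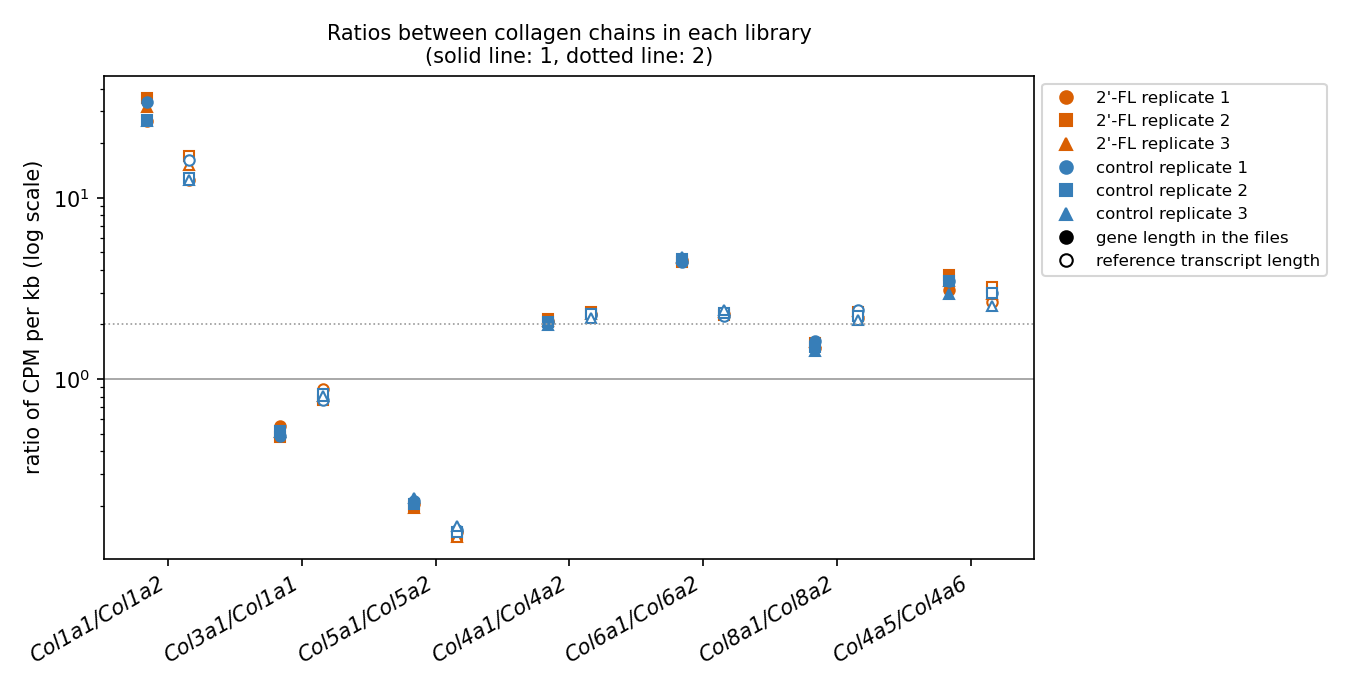
Ratio of CPM per kb between collagen chains in each library on a log axis, with filled symbols for the gene length in the files, open symbols for the reference transcript, and lines at 1 and 2. Col1a1 over Col1a2 lies far above both lines, Col4a1 over Col4a2 lies at or near 2 in all libraries, and Col5a1 over Col5a2 lies below 1.

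Spread between libraries depended on the level. For the 17 tested collagens at 30 CPM or more, the coefficient of variation within groups ran from 2.8% for Col4a5 to 16% for Col27a1, with a median of 7.92%, while counting alone would give 0.36% to 3.79%. For the 12 below that level it ran from 12.2% for Col5a3 to 54.8% for Col7a1, with a median of 23.1% against 5.04% to 28.7% from counting. Col3a1 had 4.25%, the second smallest of the abundant genes after Col4a5. The highest value of a gene was in 2'-FL replicate 2 for 11 of the 29, in 2'-FL replicate 1 for 7 and in a control for 7. The lowest was in control replicate 2 for 10, in control replicate 1 for 7 and in 2'-FL replicate 2 for 5. Thus 2'-FL replicate 2, which stood apart over all genes, was an extreme library for 16 of the 29 collagens, in both directions.

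**Figure D4:**
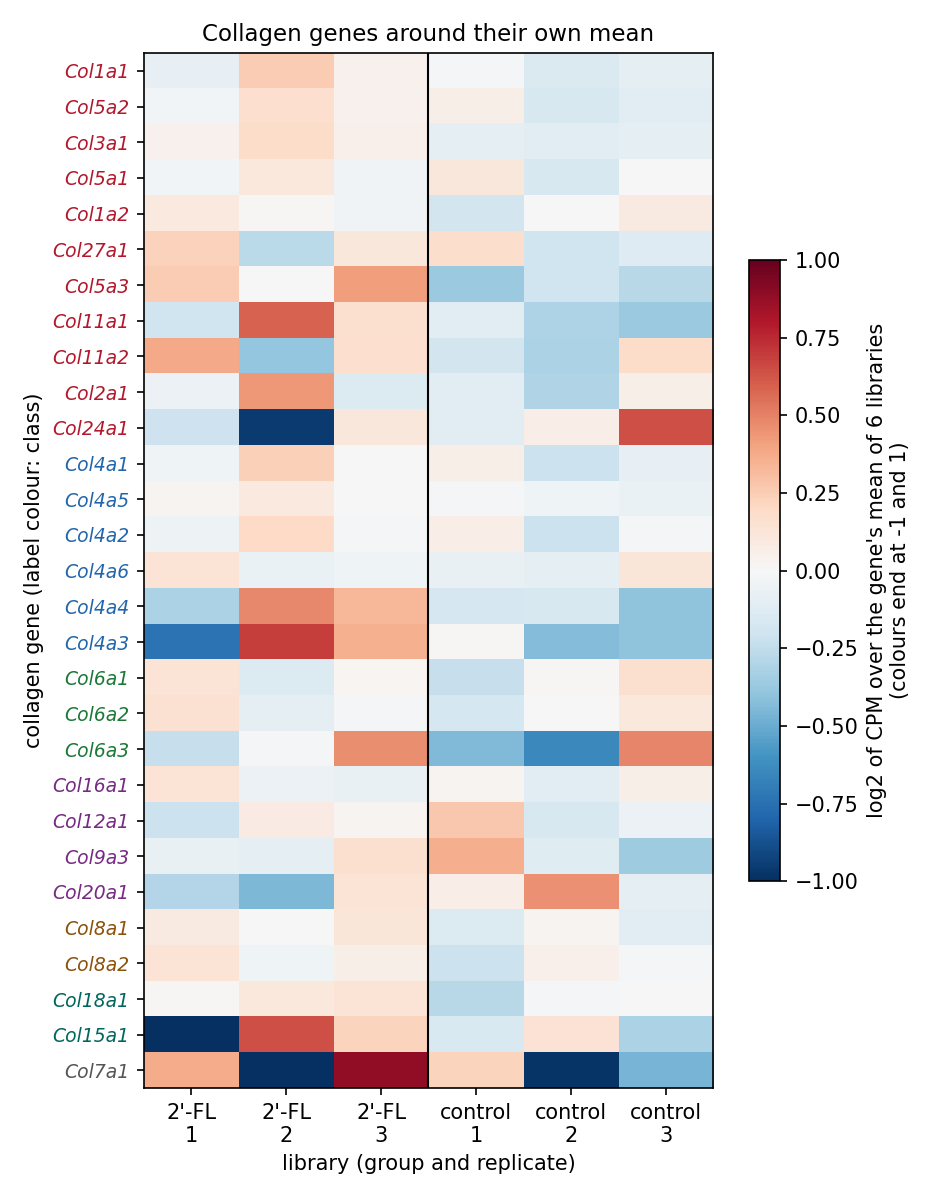
Log2 of the CPM of each tested collagen over its own mean of 6 libraries, one column per library and one line per gene in class order, with red above and blue below the mean and colours ending at -1 and 1. The 2'-FL replicate 2 column is red for Col1a1, Col11a1, Col4a1 and Col4a4 and blue for Col6a1, Col27a1 and Col24a1, and the control replicate 2 column is mostly pale blue.

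Genes that modify, fold, process, crosslink, bind or degrade collagen were examined beside the collagens, as 61 genes in 7 lists, of which 55 were tested. By edgeR 0 passed over all genes, with 4 higher and 2 lower at an unadjusted p under 0.05, against 3.36% higher and 4.54% lower over all genes. With a replicate block 1 of the 55 was higher and 1 lower at such a p, Creb3l1 and Mmp13, against 2.3% higher and 3.45% lower over all genes. Estimates were above 0 for 39 and below for 16, with a median of 0.06, where 48.4% of all genes were above 0. Hydroxylases and glycosyltransferases had 11 of 13 above 0 and a median of 0.06. P4hb and P4ha1, subunits of the prolyl hydroxylase that stabilises the helix, stood at 553 and 106 CPM per kb, with log2 fold changes of 0.06 and 0.05. Crtap, a partner of prolyl 3-hydroxylation, was at 117 ± 0.53 CPM with 2'-FL against 105.5 ± 6.94 CPM in controls (n = 3 each, SD), without overlap and with an edgeR adjusted p of 0.570. Chaperones and export genes had 9 of 11 above 0 and a median of 0.04. Serpinh1, the collagen chaperone HSP47, stood at 638 CPM per kb with a log2 fold change of 0.13 ± 0.08, and Fkbp10 at 126 CPM per kb with 0.14 ± 0.07 (SE). Creb3l1, a membrane-bound transcription factor known for its part in Col1a1 transcription in bone, was at 87.0 ± 5.89 CPM with 2'-FL against 73.2 ± 6.36 CPM in controls (n = 3 each, SD). Its groups did not overlap, and its log2 fold change of 0.26 ± 0.08 (SE) had an unadjusted p of 0.00435 and an edgeR adjusted p of 0.430.

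Propeptide processing genes had 6 of 7 above 0 and a median of 0.09. Pcolce, an enhancer of the C-proteinase, stood at 86.02 CPM per kb with a log2 fold change of 0.09 ± 0.06, and Bmp1, that proteinase, at 13.7 CPM per kb with 0.01 ± 0.06 (SE). Adamts14, an N-proteinase, had the smallest p of the list, at 0.58 ± 0.28 (SE; unadjusted p = 0.0526, edgeR adjusted p = 0.642). The lysyl oxidases that crosslink chains had 4 of 5 above 0 and a median of 0.13. Lox stood at 287 CPM per kb with 0.13 ± 0.07, and Loxl2 at 62.5 CPM per kb with 0.20 ± 0.09 (SE; edgeR adjusted p = 0.703 and 0.620). Fibril-associated proteins went both ways, with 3 of 7 above 0 and a median of -0.07. Sparc, a collagen-binding glycoprotein, stood at 3612 ± 160.4 CPM with 2'-FL against 3234 ± 164 CPM in controls (n = 3 each, SD; edgeR adjusted p = 0.568). Fibronectin, Fn1, on which cells assemble collagen fibrils, stood at 4841 ± 53.6 and 5583 ± 338 CPM (n = 3 each, SD), and its estimated log2 fold change was -0.20 ± 0.07 (SE; edgeR adjusted p = 0.503). Neither Sparc nor Fn1 overlapped between groups, and they differed in opposite directions.

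Collagen receptors had 4 of 7 above 0 and a median of 0.08, with Itgb1, the common integrin beta chain, at 349 CPM per kb and the collagen-activated kinase Ddr1 at 72.6 CPM per kb, both with a log2 fold change of 0.08. Ddr2, its relative, had the smallest p of the list, at -0.16 ± 0.09 (SE; edgeR adjusted p = 0.711). Degradation genes had 2 of 5 above 0 and a median of -0.06. The gelatinase Mmp2 stood at 129 CPM per kb and the membrane collagenase Mmp14 at 42.1 CPM per kb, with log2 fold changes of 0.04 and 0.14. Mmp13, a secreted collagenase, stood at 14.7, 6.46 and 9.86 CPM with 2'-FL and at 11.05, 16 and 19.5 CPM in controls. Those values overlapped, since 2'-FL replicate 1 lay above control replicate 1, and the log2 fold change was -0.58 ± 0.24 (SE; unadjusted p = 0.0266, edgeR adjusted p = 0.570).

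**Figure D5:**
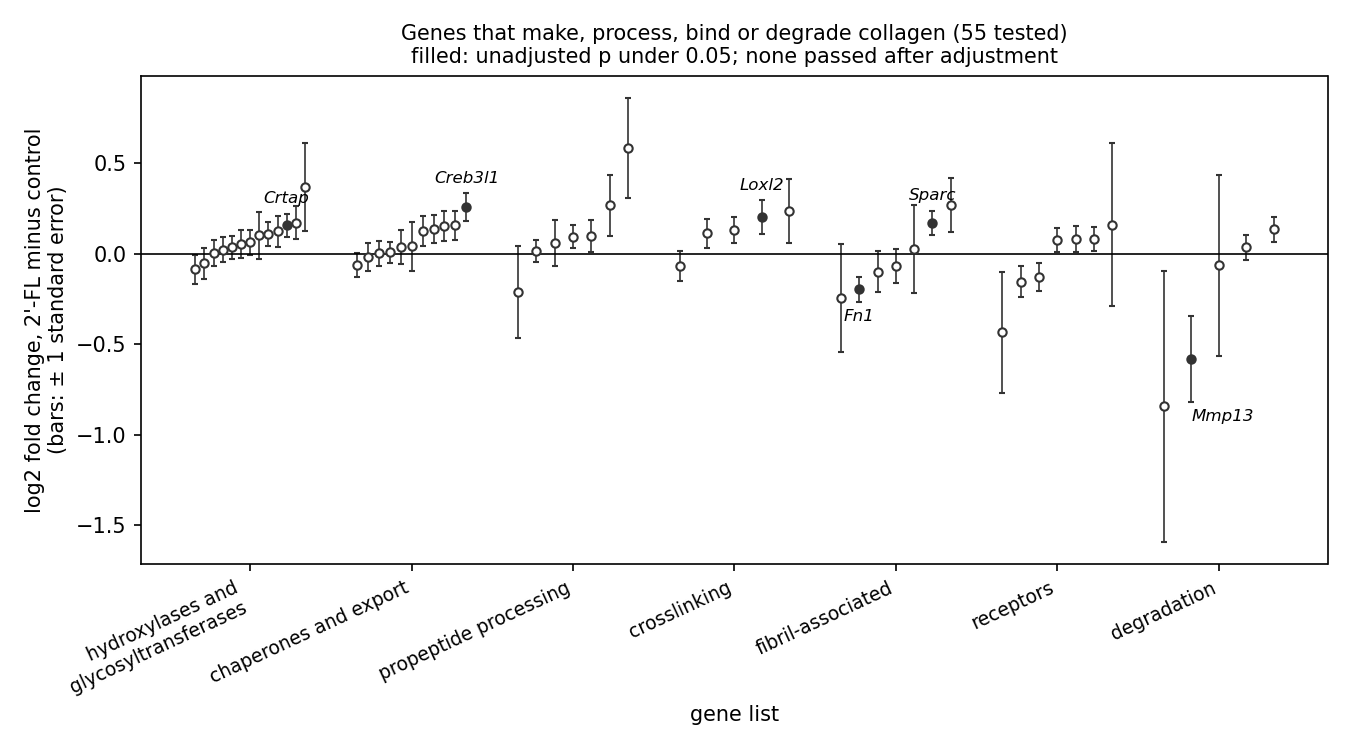
Estimated log2 fold change, 2'-FL minus control, of the 55 tested genes that make, process, bind or degrade collagen, by list, with bars of 1 standard error. The filled and named points are the 6 genes at an unadjusted p under 0.05, 4 above 0 and 2 below, of which 0 passed after adjustment.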

How the data were processed

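The members and the gene lists were chosen with earlier results of these data known. The deposited values are raw counts per gene, with no normalization, in 1 file per library, and the gene length of each file is in bases, per the file headers. Per the labels' protocols, the kits were Qiagen RNeasy mini for total RNA and NEBNext Ultra II RNA for libraries. Per the submitters' processing notes, the build was GRCh38 and the tools Bowtie2 (version 2.7.3a as written there), bcl2fastq and FastQC 0.11.9. The identifiers are those of mouse, and all 44 collagens lie at the same place in GENCODE M21 (GRCm38), as do 53462 of 54532 genes. For the counting program and its use of strand, nothing is given in the sources used here, so reads of overlapping genes cannot be told apart.

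Counts were tested in R 4.3.3 with edgeR 4.0.16 (filterByExpr with a minimum count of 10, TMM scaling, glmQLFit and glmQLFTest) over 14129 genes, with Benjamini-Hochberg adjustment and a threshold of 0.05. CPM are of the library total, and CPM per kb divide by the gene length in the files, or by that of the GENCODE principal transcript. Standard errors were derived from F statistics. A count of 0 was read as allowing 3 counts. The test was checked on counts simulated from the means, library sizes and dispersions of these data, with 50 genes changed at each size. It recovered 20% of 1.25-fold, 74% of 1.5-fold, 90% of 2-fold and 88% of 3-fold changes. Of its 145 calls, 9 were in unchanged genes. Most changes as small as 1.25-fold were thus missed there. Values in every library are given for the 3 highest genes of the fibrillar, type IV and type VI classes and the highest tested of each other class, for up to 5 genes of smallest p on each side of 0, and for both chains of each ratio, and for Col4a3 and Col4a6, added after their values were seen. Of each other list, the 2 highest genes and the one with the smallest p are named. The alternatives were RLE, upper-quartile and total scaling, no filter, a filter of 1 CPM in 3 libraries, robust estimation, a replicate block, length and GC trends removed, DESeq2 1.42.0, limma-voom (limma 3.58.1) and each library left out. Leaving out both libraries farthest out on the principal components was added after the data were seen. Protein sequences are not used here.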

Additional observations from a re-analysis of the deposited data

How the results depend on the processing

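Calls and log2 fold changes were recomputed under 17 alternatives (16 for Col15a1), class shares and chain ratios with another length and with each library left out. For 19 of the 29 tested collagens the sign of the log2 fold change was the same in all of its alternatives. The number of collagens called by edgeR, 0 with all libraries, was 2 without a filter on low counts (Col4a4, adjusted p = 0.0158, and Col5a3, adjusted p = 0.0184) and 0 to 1 with each library left out. Over all genes 0.603% passed without the filter, and 0.145% without 2'-FL replicate 1, where the 1 collagen passed. Without that filter the prior degrees of freedom were infinite, against 10.6 with it, so that each gene's dispersion was taken from the trend over all genes. The number at an unadjusted p under 0.05, 6 with all libraries, was 10 without a filter, 4 with library totals only and 3 to 9 with each library left out. All were higher, where the shares of all genes higher at such a p were 3.36%, 2.84%, 2.99% and 1.98% to 4.48%, in the same order. Of the listed genes of collagen handling, 1 of 60 was called by edgeR without a filter, Mmp13 (log2 fold change -0.57, adjusted p = 0.0046), where 0.603% of all genes passed. Adjusted p ranged from 0.111 to 0.930 for Col3a1 and from 0.0184 to 0.700 for Col5a3 over the alternatives. The median of the tested collagens ranged from 0.07 to 0.15.

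Some log2 fold changes changed sign, most of them near 0, and the cause was not tested. With each library left out, the ranges were -0.0041 to 0.13 for Col1a2, -0.024 to 0.11 for Col4a6, -0.039 to 0.11 for Col5a1, -0.058 to 0.13 for Col6a1, -0.021 to 0.12 for Col6a2, -0.13 to 0.26 for Col9a3 and -0.14 to 0.0995 for Col12a1. For Col15a1 the range was -0.23 to 0.57, for Col16a1 -0.043 to 0.065, for Col27a1 -0.018 to 0.22, for Mmp2 -0.023 to 0.076 and for P4ha1 -0.0043 to 0.13. Without 2'-FL replicate 2 and control replicate 1 together, an alternative chosen after seeing the data, Col1a2 was at -0.0081, Col6a1 at -0.0008, Col12a1 at 0.028, Col15a1 at -0.25 and Mmp2 at -0.0028. With length and GC trends removed, Col9a3 was at -0.018, Col12a1 at 0.061 and Bmp1 at -0.013. Without a change of sign, the ranges with each library left out were 0.062 to 0.25 for Col1a1, 0.14 to 0.23 for Col3a1, 0.052 to 0.24 for Col4a1, 0.016 to 0.18 for Col4a2, 0.28 to 0.67 for Col4a4, 0.43 to 0.61 for Col5a3, 0.13 to 0.19 for Col8a1, 0.24 to 0.67 for Col11a1 and 0.11 to 0.24 for Col18a1.

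Levels set between genes depended on the length used, by construction. With reference transcripts, fibrillar genes held 70.8% and type IV genes 16.6% of collagen CPM per kb, and the ratios were 14.4 for Col1a1 over Col1a2, 0.811 for Col3a1 over Col1a1, 0.143 for Col5a1 over Col5a2, 2.28 for Col4a1 over Col4a2, 2.303 for Col6a1 over Col6a2 and 2.27 for Col8a1 over Col8a2.

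With the replicate number as a block (replicate block), 0 collagens and 0 genes of the other lists were called, where 0.00708% of all genes were. At an unadjusted p under 0.05 were 5 collagens, all higher, against 2.3% of all genes higher. Deviations of same-numbered libraries from their group means had correlations of -0.12, -0.07 and -0.05, and those of the other pairs ran from -0.05 to 0.11. With 3 libraries per group, deviations from a group mean depend on each other, so these values cannot decide whether same-numbered libraries were handled together. The labels do not say, and the main test did not treat them as pairs. In the 12 tested collagens below 30 CPM, counting alone would give a coefficient of variation of 5.04% to 28.7%, which limits the precision of their values.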
